A study of Mus musculus with 6 samples.

Results

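The Reg genes encode the regenerating islet-derived proteins, small secreted proteins of the C-type lectin class that pancreatic acini make in large amounts when they are injured. The family was taken as 7 genes by name, Reg1, Reg2, Reg3a, Reg3b, Reg3d, Reg3g and Reg4, and all 7 were among the 56953 genes counted. Of these, 6 passed a filter on low counts that left 14738 genes for testing, and Reg4 did not. The counts came from bulk RNA-seq of 6 cultures of mouse pancreatic acini, the clusters of enzyme-secreting cells of the exocrine pancreas, all taken at day 3 of an ex vivo assay of acinar-to-ductal metaplasia (ADM). In this assay isolated acini are embedded in Matrigel and lose their secretory identity as they take on a duct-like form. The acini were wild type (WT, 2 libraries), Dkk3-null (DD, 2 libraries) or Dkk3-null and given recombinant DKK3 protein (DD + rDKK3, 2 libraries). DKK3 is a secreted glycoprotein, and the null allele is carried by every cell of the mouse, so that acini and any other cells in the explant lacked it alike. All cultures shared a medium with dexamethasone, a glucocorticoid, and a trypsin inhibitor. The labelled ages were 10 and 11 weeks for WT, 12 and 13 weeks for DD and 14 and 15 weeks for the treated DD cultures. They rise by 1 week from library to library across the groups, and the sources used here do not say whether they were recorded for each animal. Taken as given, the effects of age and of group cannot be told apart. WT 2 is labelled female and the other 5 libraries male. By sex the WT libraries came from different animals, and in the other groups only the labelled ages separate the cultures, since no label names an animal. If those ages are not right, the spread between replicates that the p-values rest on may be in part technical.

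Reg proteins are best known in the pancreas for their response to injury. Reg1, also called lithostathine or pancreatic stone protein, is a secretory protein of acinar cells, and Reg2 is its close relative in the mouse. Reg3b, known as pancreatitis-associated protein, is strongly induced in acute pancreatitis, and Reg3g is an antibacterial lectin best studied in the gut, where it binds the peptidoglycan of bacterial cell walls. Cytokines of the interleukin-6 and interleukin-22 families induce Reg3 genes through the kinase JAK1 and the transcription factor STAT3, and glucocorticoid can act together with them. Reg4 is the most distant member and is made mainly in the gut.

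On the deposited coordinates of mouse genome build GRCm39, all members but Reg4 lay in 1 cluster on chromosome 6, from base 78347640 to base 78445855, a span of 98216 bases. In order along the chromosome these were Reg3b (ENSMUSG00000071356.8, 78347640 to 78350449, plus strand), Reg3d (ENSMUSG00000068341.9, 78352857 to 78355848, minus strand) and Reg3a (ENSMUSG00000079516.3, 78357692 to 78360810, plus strand). They were followed by Reg2 (ENSMUSG00000023140.5, 78372606 to 78385089, plus strand), Reg1 (ENSMUSG00000059654.8, 78399694 to 78405650, plus strand) and Reg3g (ENSMUSG00000030017.3, 78443252 to 78445855, minus strand). Reg4 (ENSMUSG00000027876.5) lay on chromosome 3, from 98129472 to 98144064 on the plus strand. Each is a protein-coding gene whose canonical transcript has 6 exons. The coding sequences of Reg1 and Reg2 were the most alike, with 82.63% identical bases over their alignment, ahead of Reg3b and Reg3g with 76.44% and Reg3a and Reg3b with 75.97%. Reg3d shared 65.9% to 66.35% with the other Reg3 genes. In none of the 7 canonical transcripts was any window of 50 bases, the length of 1 sequenced read end, also found in a transcript of another gene, so reads of this family could be told apart by sequence. Ctnna2, Lrrtm4 and Lrrtm1, neuronal genes that flank the cluster, had at most 1 count in any library.

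**Figure D1:**
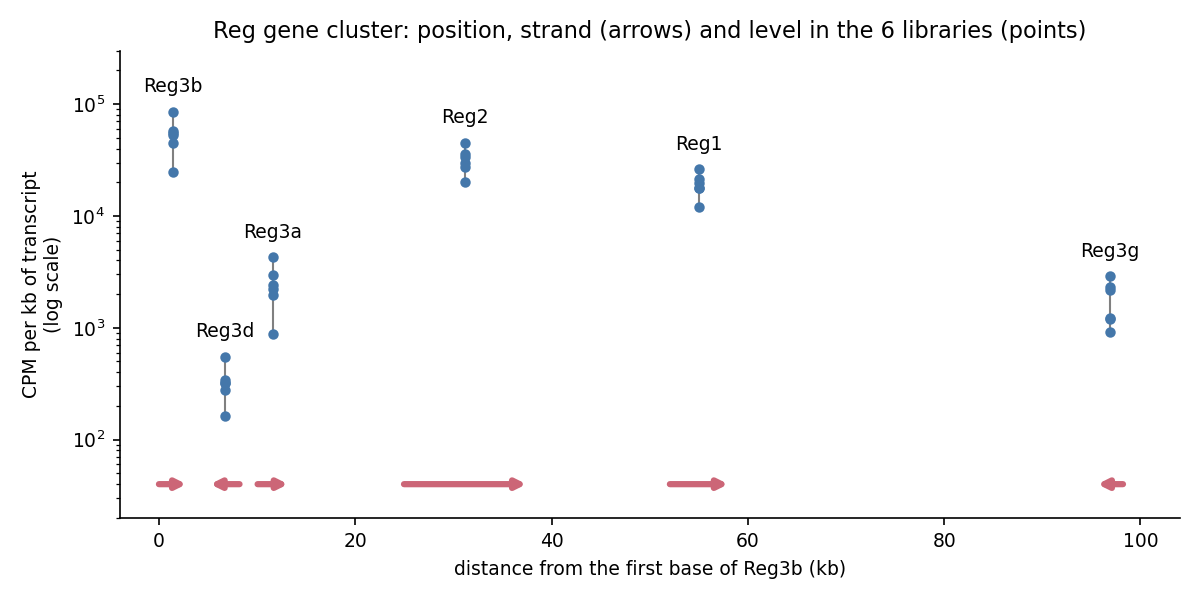
Map of the 6 Reg genes on chromosome 6, with the distance from the first base of Reg3b in kb on the x axis, an arrow for each gene's strand, and its level in the 6 libraries on a log y axis, in CPM per kb of transcript. The most abundant gene, Reg3b, and the least abundant, Reg3d, lie next to each other on opposite strands.

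Sequence before the start site is shown for Reg3b, the most abundant member, for Reg3g, its nearest relative in sequence, and for Reg2. The mean of Reg3g was lowest in DD + rDKK3, whereas the means of Reg2 and of every other tested member were lowest in DD. The sequences are RefSeq promoters (assembly GRCm38.p6), placed on GRCm39 by an exact match, and run from base 130 to base 22 before the RefSeq start site on the strand of the gene. Capitals mark a STAT motif or a TATA box. The RefSeq start sites of Reg3b and Reg2 lie inside the longer gene bodies given above. The positions are chr6:78347738-78347846 on the plus strand for Reg3b, chr6:78445879-78445987 on the minus strand for Reg3g and chr6:78382008-78382116 on the plus strand for Reg2.
Reg3b: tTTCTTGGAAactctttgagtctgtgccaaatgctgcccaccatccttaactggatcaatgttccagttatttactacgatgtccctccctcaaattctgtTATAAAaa
Reg3g: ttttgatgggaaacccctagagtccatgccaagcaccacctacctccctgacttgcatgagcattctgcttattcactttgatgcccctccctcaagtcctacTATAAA
Reg2: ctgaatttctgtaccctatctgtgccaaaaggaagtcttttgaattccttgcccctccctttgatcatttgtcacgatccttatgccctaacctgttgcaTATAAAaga

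Over the 250 bases before the start, on both strands, the STAT motif TTCNNNGAA was found in 2 of the 7 Reg promoters, against 7.02% of all 32851 promoters in the table. It lay 129 to 121 bases before the start in Reg3b and 238 to 230 bases before it in Reg3d. The TATA box TATAAA was found in 4 of 7, against 12.4% of all promoters. It began 29 bases before the start in Reg3b, 30 in Reg2, 30 in Reg1 and 27 in Reg3g, which also held it on the reverse strand 161 to 156 bases before the start. The AP-1 motif TGANTCA was found in 1 of 7 (Reg1, 117 to 111 bases before the start; 6.75% of all promoters) and the C/EBP motif TTNNGNAA in 3 of 7 (Reg3d, Reg3a and Reg2; 36.8% of all promoters). A match describes the letters of the window and is not a bound site.

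The library totals ranged from 12018473 counts in WT 1 to 19750401 in DD 1. Levels below are in CPM, the usual unit of counts relative to the library total, after scaling of these totals by TMM (trimmed mean of M values), with factors from 0.8478 in WT 1 to 1.071 in DD 1. Replicates of no group matched within counting noise (chi-square per degree of freedom 23.41 to 66.94). On the first principal component, which held 42.26% of the variance, DD 2 and DD + rDKK3 2 stood apart from the other 4 libraries, and on the second, with 32.32%, WT 1 stood apart. Dkk3 itself had 1 to 11 counts in each library, and a gene count does not show which exon was read, so it could not check the labels. All 22 acinar enzyme genes examined passed the filter and their summed level was 136873 to 241985 CPM, as the label of acini requires. The 22 include Clps, Sycn, Gp2 and Zg16, which encode acinar products that are not enzymes themselves.

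Reg transcripts were among the most abundant RNAs of every culture. The 7 genes together took 10.97% and 8.70% of the WT counts, 5.01% and 9.17% of the DD counts, and 7.93% and 9.13% of the counts with rDKK3. The mean share was 9.83% ± 1.60 for WT, 7.09% ± 2.95 for DD and 8.53% ± 0.849 for DD + rDKK3 (SD over 2 libraries). The library DD 1 was below all others, whereas DD 2 lay between the WT libraries. After TMM scaling the summed level was 129483 and 87964 CPM in WT, 46827 and 87561 in DD, and 78283 and 87342 with rDKK3, and DD 2 was then just below WT 2. Per length of transcript, Reg3b ranked between 1 and 3 among all genes with a length in the 6 libraries, Reg2 between 3 and 4, and Reg1 between 5 and 6.

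**Figure D2:**
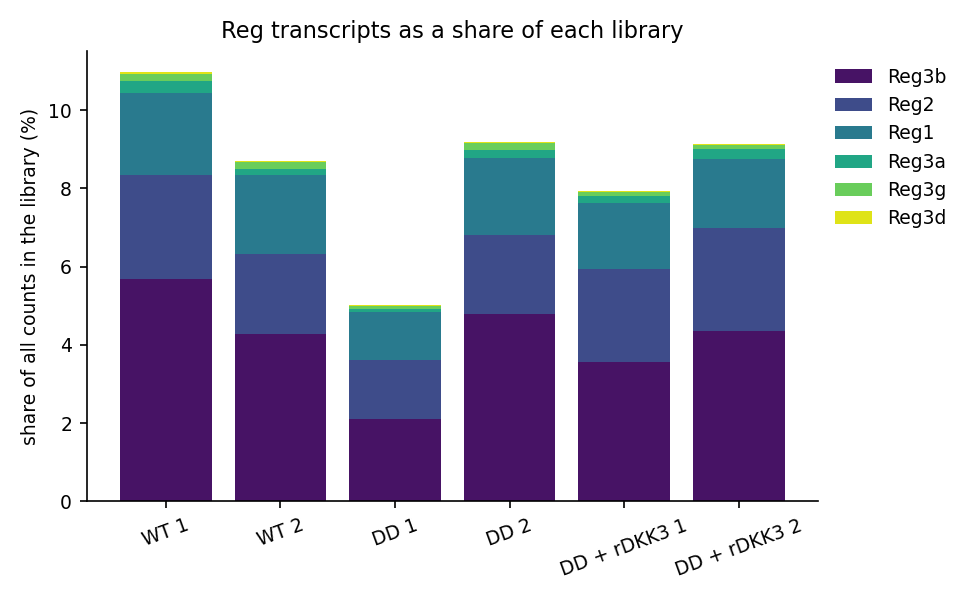
Share of all counts taken by each Reg gene, in %, stacked in 1 bar for each of the 6 libraries. The bar of DD 1 is the lowest at 5.01% and that of WT 1 the highest at 10.97%, and Reg3b, Reg2 and Reg1 fill nearly all of each bar.

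On this scale, the one on which genes can be compared with each other, the levels followed the order Reg3b, Reg2, Reg1 in all 6 libraries, with Reg3a and Reg3g well below and Reg3d lowest among the 6. In WT the level of Reg3b was 69998 ± 21471 CPM per kb, that of Reg2 37244 ± 10891 and that of Reg1 23798 ± 3208 (SD, n = 2). In the same libraries Reg3a stood at 3120 ± 1615, Reg3g at 2592 ± 418 and Reg3d at 445 ± 150 CPM per kb. Reg3a and Reg3g did not differ beyond their spread in WT or in DD, and their order switched between libraries of both groups. In DD + rDKK3 Reg3a was the higher in both libraries, at 2204 and 2944 CPM per kb, against 1199 and 1231 for Reg3g. In DD the values of Reg3b, 24879 and 57895 CPM per kb, overlapped those of Reg2, 20272 and 27483. Within each DD library Reg3b was the higher.

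Reg3b, the pancreatitis-associated protein, stood at 67207 and 43249 CPM in WT, 19630 and 45679 in DD, and 35220 and 41554 with rDKK3. DD 2 lay above WT 2, so WT and DD overlapped, and both DD + rDKK3 libraries were below both WT libraries. Reg3a, a further lectin of the Reg3 group, stood at 3516 and 1632 CPM in WT, 721 and 1998 in DD, and 1818 and 2429 with rDKK3. It had the widest range of the family, and every pair of groups overlapped.

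Reg3g, the antibacterial lectin, stood at 2247 and 1787 CPM in WT, 717 and 1700 in DD, and 933 and 958 with rDKK3. Both Dkk3-null groups lay below WT in every library, and the DD + rDKK3 libraries lay within the wide range of DD. Reg3d, the least abundant of the members tested, stood at 431 and 265 CPM in WT, 127 and 216 in DD, and 253 and 250 with rDKK3. Its 3 groups did not overlap, with WT highest and DD lowest. Its lowest value rested on 2684 counts, with an exact 95% Poisson interval of 122 to 132 CPM. Such intervals cover counting error only, and here they are much narrower than the spread between libraries.

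Reg2 stood at 31372 and 20621 CPM in WT, 14150 and 19183 in DD, and 23289 and 25199 with rDKK3. Both DD libraries were below all 4 others, and the DD + rDKK3 values lay within the range of WT. Reg1, its closest relative in sequence, stood at 24711 and 20410 CPM in WT, 11482 and 18785 in DD, and 16771 and 16953 with rDKK3. Reg1 in both Dkk3-null groups was below WT in every library, and the DD + rDKK3 values lay between those of DD.

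Reg4, the gut member outside the cluster, had 0 counts in all WT and DD libraries, and 2 and 1 counts in DD + rDKK3. Counts of 0 allow levels of up to 0.295 and 0.211 CPM in WT and 0.142 and 0.176 CPM in DD, by the floor of 3 counts per library. With all libraries at or under that floor, no fold can be given, and a difference was not detectable at this depth.

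**Figure D3:**
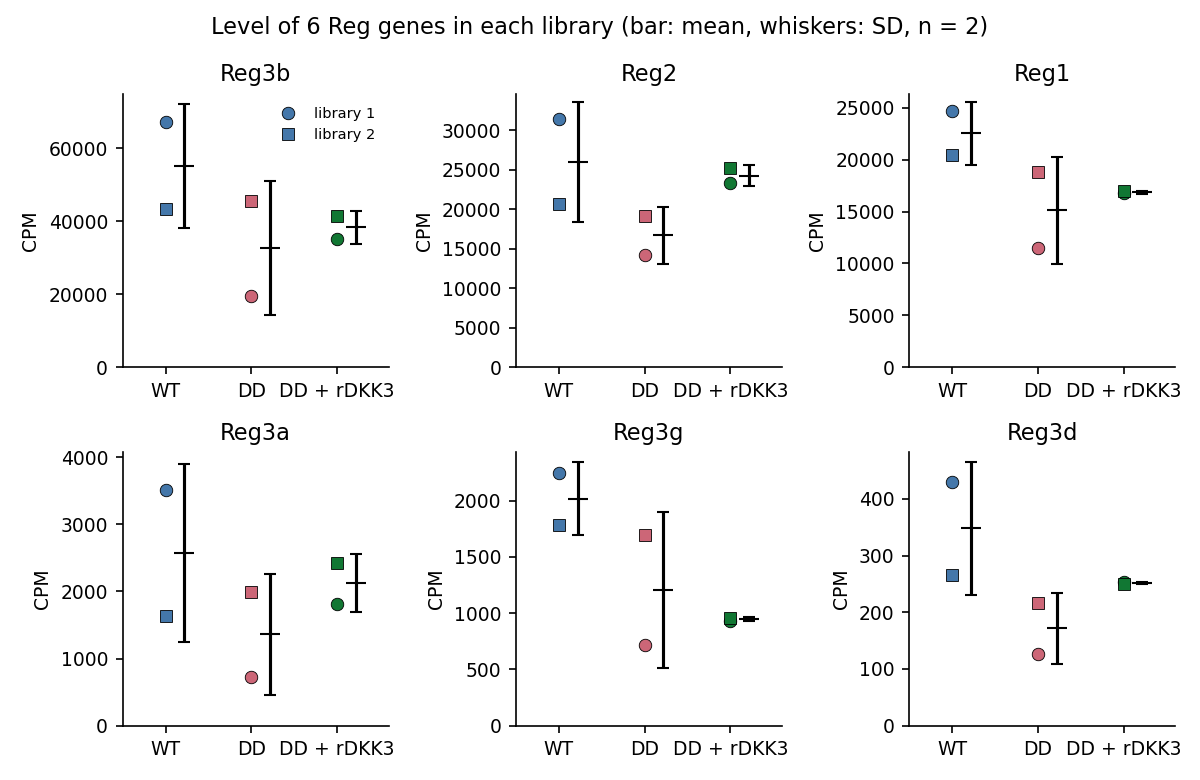
Level of the 6 tested Reg genes, in CPM, in 1 panel per gene with the groups WT, DD and DD + rDKK3 on the x axis. Points are libraries, bars their mean and whiskers the SD (n = 2). In every panel the lowest point is DD 1 and the highest WT 1, and the DD + rDKK3 points lie closer together than those of WT or of DD.

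The effect of DKK3 loss was examined by comparing DD with WT. All 6 tested members had a lower mean in DD, with mean levels between 0.493 (Reg3d) and 0.671 (Reg1) of those in WT, but none passed the test. Reg3d was at 171 ± 62.8 CPM in DD against 348 ± 117 in WT (SD, n = 2 each), a log2 fold change of -1.02 (SE 0.308, edgeR adjusted p = 0.586). Reg2 was at 16667 ± 3559 against 25997 ± 7602 CPM, a log2 fold change of -0.64 (SE 0.271, edgeR adjusted p = 0.586). For Reg3a the log2 fold change was -0.92 (SE 0.510), for Reg3b -0.76 (SE 0.405), for Reg3g -0.74 (SE 0.368) and for Reg1 -0.58 (SE 0.271), with edgeR adjusted p from 0.586 to 0.590.

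With edgeR's quasi-likelihood test and Benjamini-Hochberg adjustment over all genes, 0 of 6 members were called in DD against WT, where 0.0407% of all genes were. DESeq2 and limma-voom also called 0. At an unadjusted p under 0.05, edgeR gave 2 members (Reg3d and Reg2), against 8.26% of all genes, DESeq2 3, against 7.46%, and limma-voom 1, against 7.31%. Reg3d had the smallest p of the family and ranked 234 among the 14738 genes. The groups did not overlap, with DD lower, for 4 of 6 members (Reg3d, Reg2, Reg1 and Reg3g), against 19.7% of all genes. The median log2 fold change of the 6 was -0.75, beside 0.02 over all genes, and 48.3% of all genes had a value below 0. The 6 genes are neighbours in 1 cluster and followed each other across libraries, so their shared direction is not 6 separate observations.

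In 4 of 6 members (Reg1, Reg3a, Reg3b and Reg3g) the DD libraries differed more from each other than DD and WT did in the fit. DD 2 was above DD 1 in all 6 members, by log2 differences of 0.44 in Reg2, 0.71 in Reg1, 0.76 in Reg3d, 1.22 in Reg3b, 1.25 in Reg3g and 1.47 in Reg3a. In WT the order was the other way, with WT 2 below WT 1 by a log2 difference of -0.28 in Reg1 to -1.11 in Reg3a. The median difference between replicates was 0.99 in DD and -0.62 in WT, where the median absolute difference over all genes was 0.28 and 0.30. In DD + rDKK3 it was 0.08, with 0.17 over all genes, and only Reg3a (0.42) and Reg3b (0.24) differed by more than 0.17 there. The median log2 fold change of the 6 members between DD and WT was -0.29 when DD 1 was left out, and -1.47 when DD 2 was. It was -0.40 in the fit that lacked WT 1 and -0.97 in the one that lacked WT 2. All 6 values stayed below 0 in each of these fits, from -0.22 (Reg3g without DD 1) to -1.83 (Reg3a without DD 2), and no member was called.

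The effect of adding the protein back was examined by comparing DD + rDKK3 with DD. Of the 6 members, 5 had a higher mean with rDKK3 and Reg3g a lower one, and none passed the test. Reg2 was at 24244 ± 1351 CPM with rDKK3 against 16667 ± 3559 in DD, a log2 fold change of 0.54 (SE 0.271). Reg3d was at 252 ± 2.08 against 171 ± 62.8 CPM, a log2 fold change of 0.55 (SE 0.305). Reg3a had a value of 0.64 (SE 0.507), Reg3b 0.23 (SE 0.403) and Reg1 0.16 (SE 0.270), and in these 3 genes the groups overlapped. Reg3g had a log2 fold change of -0.35 (SE 0.367), from 1209 ± 695 CPM in DD to 945 ± 17.5 with rDKK3. The edgeR adjusted p was 1.00 for each of the 6.

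By the same edgeR test, 0 of 6 members were called in DD + rDKK3 against DD, where 0% of all genes were, and by DESeq2 and limma-voom 0 as well. At an unadjusted p under 0.05 edgeR gave 0 members, against 1.98% of all genes, DESeq2 1, against 1.66%, and limma-voom 0, against 2.17%. Treated and untreated DD libraries with the same number share a name in their titles (DD1 or DD2), though no shared animal is named and the labelled ages differ. With that number as a block within these 4 libraries, Reg3a was called, with a log2 fold change of 0.80, as were 1.32% of the genes in that fit. Both Reg2 and Reg3d were higher in both rDKK3 libraries than in both DD libraries, which was so for 15.1% of all genes. The median log2 fold change of the members was 0.39, beside 0.00 over all genes, and 49.5% of all genes had a value above 0. Without DD 1 it was -0.06, with Reg1 at -0.18 and Reg3b at -0.27, and without DD 2 it was 0.87, with Reg3g at 0.40. The sign for Reg1, Reg3b and Reg3g thus depended on which DD library was kept, whereas Reg2 (0.32 to 0.78), Reg3d (0.20 to 0.99) and Reg3a (0.06 to 1.56) stayed above 0 with any 1 library left out.

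DD + rDKK3 was also compared with WT, to see how far treated Dkk3-null acini stood from wild-type acini. All 6 members had a lower mean than in WT, from 0.469 of the WT level in Reg3g to 0.933 in Reg2. Reg3g was at 945 ± 17.5 CPM against 2017 ± 326 in WT (SD, n = 2 each), a log2 fold change of -1.09 (SE 0.371, edgeR adjusted p = 0.322). Reg2 was at 24244 ± 1351 against 25997 ± 7602 CPM, a log2 fold change of -0.10 (SE 0.270, edgeR adjusted p = 0.865). Reg3b had a value of -0.52 (SE 0.403), Reg3d -0.47 (SE 0.305), Reg1 -0.42 (SE 0.271) and Reg3a -0.28 (SE 0.506). None of these passed the test.

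In this comparison edgeR called 0 of 6 members, where 0.0475% of all genes were called, and DESeq2 and limma-voom 0 each. At an unadjusted p under 0.05, Reg3g was the 1 member found by edgeR, against 15.3% of all genes, and DESeq2 and limma-voom each gave 1, against 14.6% and 14.3%. The groups did not overlap for 4 members (Reg3b, Reg3d, Reg1 and Reg3g), all lower in DD + rDKK3, as were 27.1% of all genes. The median log2 fold change of the members was -0.44, beside 0.02 over all genes, and 48.4% of all genes had a value below 0. Without WT 1 it was -0.10, with Reg2 at 0.25 and Reg3a at 0.40, while Reg3g remained at -0.90. The 3 comparisons share libraries and are not independent of each other.

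**Figure D4:**
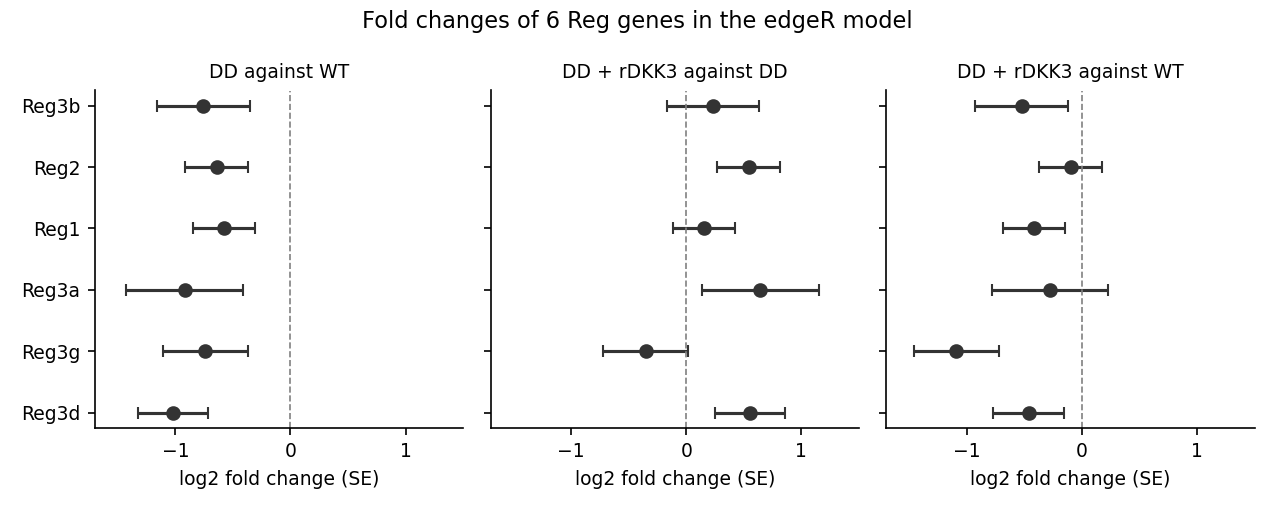
Log2 fold change of each tested Reg gene in 3 panels, for DKK3 loss (DD against WT), for added rDKK3 (against DD), and for treated DD acini set against WT, with whiskers of 1 SE from the edgeR model over all 6 libraries. All 6 points are below 0 in both panels against WT, 5 of 6 are above 0 in the panel against DD, and Reg3g is the lowest point in both panels with rDKK3.

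**Figure D5:**
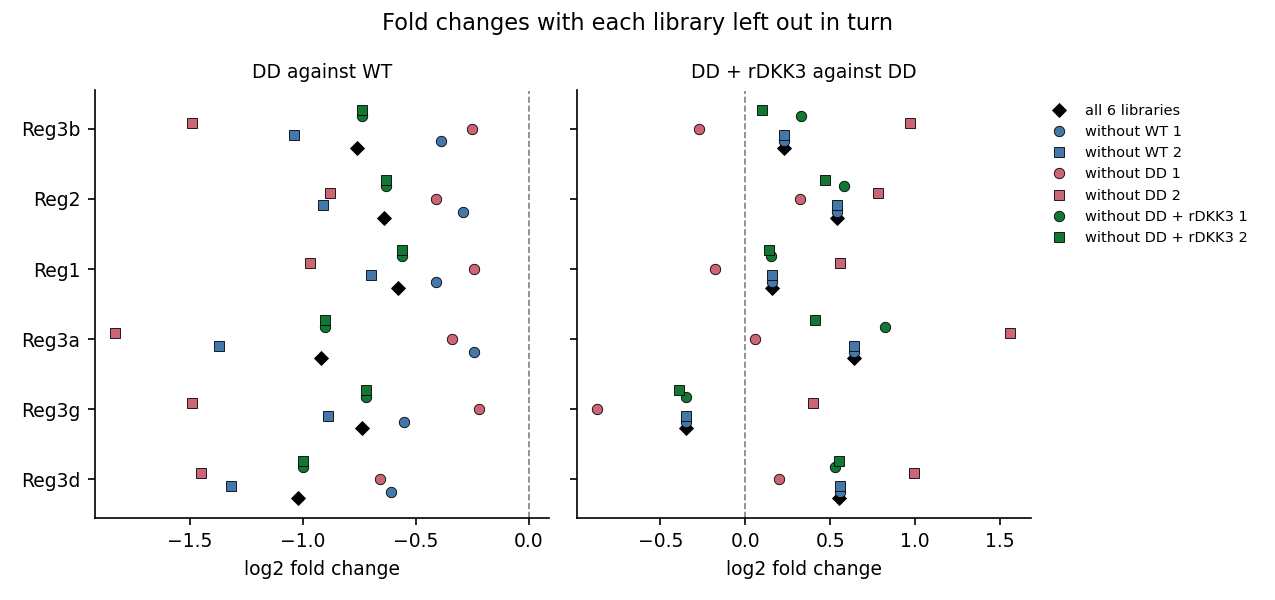
The same log2 fold changes, in 1 panel per comparison, with each library left out in turn. Points for DD against WT spread from -1.83 to -0.22, and those for DD + rDKK3 against DD lie on both sides of 0 for Reg1, Reg3b and Reg3g.

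Within the family the 6 tested genes kept similar but not equal proportions. Reg3b made up 41.9% to 52.2% of all Reg counts in a library, Reg2 21.9% to 30.2% and Reg1 19.1% to 24.5%. Reg3a made up 1.54% to 2.78%, Reg3g 1.10% to 2.03% and Reg3d 0.247% to 0.333%. The part taken by Reg3g was lowest in the libraries with rDKK3, at 1.19% and 1.10%, against 1.74% and 2.03% in WT and 1.53% and 1.94% in DD. As a mean this was 1.14% ± 0.0673 with rDKK3, 1.74% ± 0.290 in DD and 1.88% ± 0.209 in WT (SD over 2 libraries). Relative to Reg3b, Reg3g counts stood at 2.65% and 2.31% with rDKK3 and between 3.34% and 4.13% in the other 4 libraries. Relative to Reg2 they stood at 4.01% and 3.80% with rDKK3 and between 5.07% and 8.86% in the others. These ratios do not depend on how library totals were scaled. They were compared after the levels had been seen and were not tested.

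The balance of Reg2 against Reg1, the 2 most similar coding sequences, also varied. Reg2 counts were 139% and 149% of Reg1 counts with rDKK3, 127% and 101% in WT, and 123% and 102% in DD. Relative to Reg3b, Reg2 counts stood at 72.1% in DD 1 but at 42.0% in DD 2, with 66.1% and 60.6% in the rDKK3 libraries and 46.7% and 47.7% in WT. DD 1 thus stood further below DD 2 in Reg3b than in Reg2.

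Across the 6 libraries the log2 levels of Reg1 and Reg3b were the most alike (Pearson r 0.98), and those of Reg2 and Reg3g the least (0.55). Reg3g was also the member least like Reg3a (0.68) and Reg3d (0.75), while Reg2 followed Reg3a and Reg3d with 0.95 each. These values describe 6 libraries that share their depth and scaling, and rest much on DD 1 and WT 1 at the extremes. Among 8832 genes outside the family with enough counts, those most like the mean pattern of the 6 members were Aopep (r 0.997), Zg16 (0.990), Chchd7 (0.987), Inpp1 (0.980) and Srsf6 (0.973). Zg16, a lectin of the acinar secretory granule, stood at 6439 and 4318 CPM in WT, 2369 and 4167 in DD, and 3963 and 3796 with rDKK3. The others were at far lower CPM, with Aopep, an aminopeptidase, between 19.9 and 37.3 CPM. The genes most like Reg3b alone were Aopep (0.986), the splicing factor gene Srsf6 (0.983) and Mif4gd (0.982).

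Genes known to act before the Reg genes were examined next, from lists of the pathway. Of 20 receptors and signal relays 19 were tested, and 0 were called in any comparison. In DD against WT 15 of the 19 had a value above 0 and 4 below, with a median log2 fold change of 0.14. Those with the highest CPM were Lifr, the receptor of leukaemia inhibitory factor, at 212 and 221 CPM in WT, 203 and 154 in DD, and 247 and 204 with rDKK3, and Jak1, the kinase that serves it, at 127 and 166, 189 and 144, and 186 and 174 CPM. Between DD and WT the log2 fold change was -0.28 (SE 0.196) for Lifr and 0.19 (SE 0.206) for Jak1. Of 10 cytokine ligands 4 were tested and 0 were called. Il22, Il17a and Ifng had 0 counts in all libraries, and Lif, the ligand with the highest CPM, stood at 2.75 to 5.49 CPM, ahead of Il11, which had 0.786 and 1.62 CPM in WT. Extl3, which encodes a proposed receptor of Reg proteins, stood at 65.4 and 94.6 CPM in WT, 109 and 84.3 in DD, and 112 and 120 with rDKK3, with a log2 fold change of 0.27 (SE 0.218, edgeR adjusted p = 0.654) in DD against WT.

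Of 20 acute-phase and STAT3 target genes outside the family 15 were tested, and 0 were called in any comparison. Their signs were mixed, with 8 above and 7 below 0 in both DD against WT (median 0.05) and DD + rDKK3 against DD (median 0.13). Lcn2, which encodes the iron-sequestering protein lipocalin-2, had the highest CPM, at 5610 and 4826 CPM in WT, 3396 and 3724 in DD, and 4966 and 5522 with rDKK3. DD lay below both other groups without overlap, with log2 fold changes of -0.55 (SE 0.195, edgeR adjusted p = 0.586) against WT and 0.56 (SE 0.195, edgeR adjusted p = 1.00) for DD + rDKK3 against DD. Cp, the copper-carrying plasma protein ceruloplasmin, stood at 618 and 966 CPM in WT and between 500.0 and 635 in the Dkk3-null libraries, with a value of -0.41 (SE 0.247) between DD and WT. Of 14 other lectins and secreted defence genes 10 were tested and 0 called, with a median of -0.25 in DD against WT and -0.45 in DD + rDKK3 against DD. The highest CPM of these was that of Clu, the secreted chaperone clusterin, at 19502 and 14281 CPM in WT, 13959 and 12479 in DD, and 14493 and 11669 with rDKK3, followed by Spp1, which encodes osteopontin, at 628 to 1398 CPM over the 6 libraries.

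The Reg genes were also set beside the genes of acinar identity. The list of acinar enzymes includes Zg16, named above among the genes most like the family. In DD against WT all 22 acinar enzyme genes had a value below 0, with a median log2 fold change of -0.70, and 9 of 22 had an unadjusted p under 0.05, against 3.99% of all genes in that direction. In DD + rDKK3 against DD all 22 were above 0, with a median of 0.25, and 1 of 22 had an unadjusted p under 0.05, against 0.597% of all genes in that direction. None was called in either comparison. Ctrb1, which encodes chymotrypsinogen B, had the highest CPM, with a log2 fold change of -0.33 (SE 0.253) between DD and WT, followed by Prss2, which encodes a trypsinogen, with -0.54 (SE 0.204). The summed level of the 22 was 241985 and 184758 CPM in WT, 155741 and 136873 in DD, and 186568 and 153663 with rDKK3. The lowest library for the enzymes was therefore DD 2, and for the Reg genes DD 1. The Reg sum was 53.5% and 47.6% of the enzyme sum in WT, 30.1% and 64.0% in DD, and 42.0% and 56.8% with rDKK3. Of 9 acinar transcription factors 7 had a value above 0 in DD against WT, with a median of 0.26, and 0 were called. Xbp1, the factor of secretory stress with the highest CPM, had a value of -0.45 (SE 0.225), and Ptf1a, the master factor of acinar fate, one of 0.41 (SE 0.278). In bulk RNA, fewer acinar cells and less of these transcripts per cell cannot be told apart.

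Markers of other cells in the explants differed between single libraries. The sum of 10 fibroblast and stellate cell markers was 133 and 50.3 CPM in WT, 71.7 and 775 in DD, and 160 and 856 with rDKK3, and none of the 10 was at 0. It was highest in DD 2 and DD + rDKK3 2. Of these, DD 2 was above its replicate in all 6 Reg genes, and DD + rDKK3 2 in 5 of 6, by log2 differences of at most 0.42. The sum of 10 macrophage and monocyte markers was 240 and 195 CPM in WT, 142 and 327 in DD, and 155 and 245 with rDKK3. This sum was lowest in DD 1, as the 6 Reg genes were, but highest in DD 2, whereas the Reg genes were highest in WT 1. Cd14, the macrophage marker with the highest mean CPM, stood at 121.4 and 137.2 CPM in WT, 72.79 and 85.42 in DD, and 70.82 and 57.55 with rDKK3. In DD against WT its log2 fold change was -0.71 (SE 0.176), whereas 8 of the 10 markers had a value above 0, with a median of 0.45. That DD 1 was lowest in the sum rested on Cd14, without which WT 2 was lowest. The sum of 10 ductal markers was 2543 and 1952 CPM in WT, 1845 and 2793 in DD, and 1777 and 1947 with rDKK3, and that of 10 islet markers ranged from 169 to 300 CPM. Spp1, also listed above among the defence genes, was the ductal marker with the highest mean CPM, at 628 in DD 1 and 1398 in DD 2. The sum of 8 endothelial markers ranged from 113 to 188 CPM. The part of these cells in the Reg levels was not tested. Neutrophil markers summed to 0.215 to 1.41 CPM over 8 genes, with Elane at 0, and 10 lymphocyte markers to 11.5 to 18.4 CPM, with Ms4a1 and Nkg7 at 0. Of 10 markers of intestinal epithelium, where Reg3 genes and Reg4 are also made, Apoa4, Cdx1, Defa24 and Ang4 were at 0 in all libraries, and the sum was 23.2 to 40.9 CPM. Only 4 of the 10 reached 3 counts in any library. Most of the sum came from Vil1 (15.0 to 28.6 CPM) and Chgb (7.09 to 12.9 CPM), and bulk RNA does not show which cells made them.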

How the data were processed

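Bulk RNA-seq of 6 libraries in 3 groups was used. The deposited values are raw counts of read pairs, given for each gene and library, which the authors made from strand-specific paired-end reads aligned with STAR 2.7.9a to GRCm39 and counted over exons of the basic GENCODE annotation in union mode, ignoring secondary alignments. Reads that fit more than 1 gene are lost or placed by the aligner, which can lower the counts of related genes. The table has 57045 features, of which 92 spike-in rows hold 0 counts and were left out. The library totals were 12018473 to 19750401 counts, and the smallest Reg count behind a tested value was 2684.

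From these counts, edgeR 4.0.16 in R 4.3.3 kept genes by filterByExpr (minimum count 10, minimum total 15), scaled totals by TMM and fitted 1 quasi-likelihood model over 3 groups, with 3 residual degrees of freedom. Tests are two-sided, with Benjamini-Hochberg adjustment over 14738 genes and a call at an adjusted p under 0.05. Log2 CPM used a prior count of 2. Alternatives were DESeq2 1.42.0, limma-voom (limma 3.58.1), other scalings, no filter, a replicate block and leaving out each library. The replicate numbers are not stated to pair libraries by animal. Levels per kb used canonical transcripts of a later GENCODE release, with a length for 56310 of 56953 genes. Identities, sequence matches and figures were made with Python 3.11, Biopython 1.88, pandas 2.3.3 and matplotlib 3.10.9. The fit was also run on simulated counts with the same spread for all genes, which does not show how it performs on these libraries.

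The members and lists were chosen with earlier results of these data known. The genes named are all members, the 2 genes of each pathway and acinar list with the highest CPM, markers at 0, and the 5 genes most like the family and 3 most like Reg3b with an average log2 CPM of at least 3. Also named are ductal, macrophage and intestinal markers with the highest CPM, and genes of the acinar enzyme list that are not enzymes.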

Additional observations from a re-analysis of the deposited data

How the results depend on the processing

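The number of Reg genes called was 0 in each comparison under TMM, DESeq2 size factors, library totals alone, DESeq2, limma-voom and each library left out. Without the low-count filter it was 2 in DD against WT (Reg3a and Reg3d, where 1.99% of 26506 genes were called) and 1 in DD + rDKK3 against WT (Reg3g, where 2.97% were called). The cause was not tested. In DD + rDKK3 against DD, fold changes with 1 library left out ranged from -0.18 to 0.56 for Reg1, from -0.27 to 0.97 for Reg3b and from -0.87 to 0.40 for Reg3g. In DD + rDKK3 against WT they ranged from -0.37 to 0.25 for Reg2 and from -0.72 to 0.40 for Reg3a, and Reg2 was at 0.09 with library totals alone. That scaling moved the median over all genes to 0.22 between DD and WT, where all 6 members stayed below 0. A replicate block over all 6 libraries left 0 members called in every comparison, and a replicate block within the Dkk3-null libraries called 1 (Reg3a, 0.80, where 1.32% of genes were called). Deviations from the group means correlated between same-numbered libraries with r 0.65 for DD and DD + rDKK3, -0.39 for WT and DD, and -0.25 for WT and DD + rDKK3, and the titles of the first of these pairs share a name (DD1 or DD2) but no animal is named. With the WT numbers crossed, chosen after seeing the data, a replicate block called 2, 0 and 1 members and 296, 29 and 566 genes. With 2 libraries a group, the spread between replicates limits the comparisons of the 6 tested members, whereas for Reg4 the depth does.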
